A study of Mus musculus with 5 samples.

Results

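Interferon response genes were followed across pro-B cells that carried or lacked the transcription factor gene Mef2c. The 9 members (Ifit1, Ifit2, Ifit3, Isg15, Usp18, Oasl2, Stat2, Irf7 and Irf9) were chosen by gene symbol, and each was represented by 1 probe set, so that 9 of the 23835 probe sets in the deposited table were members. A probe set is a group of short oligonucleotides on the array that together measure 1 transcript. Of the 9, 8 named their gene alone. The only probe set of Isg15 also named Gm9706, which RefSeq lists as a pseudogene, so its value could come from either locus and it was kept apart from the other 8. RNA had been hybridised to 5 Affymetrix Mouse Genome 430 2.0 arrays, of which 3 were controls and 2 came from Mef2c-deficient animals of the genotype Vav-Cre Mef2c fl/fl. All mice were 9 months old, and the pro-B cells had been sorted from bone marrow as B220+IgM-CD43+CD24+ cells. Vav-Cre acts in haematopoietic cells in general, so the deletion was not restricted to the B lineage. By the study's methods a control could be Mef2c fl/fl without Cre, or Mef2c fl/+ with or without Vav-Cre. No source used here ties a control array to one of these.

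Type I interferons signal through the receptor chains IFNAR1 and IFNAR2 and the kinases JAK1 and TYK2. These phosphorylate STAT2, which acts with IRF9 in a complex that binds the interferon-stimulated response element and switches on antiviral genes. Misplaced or broken DNA can induce interferon through the sensor cGAS and the adaptor STING. The study reported on DNA repair in B-cell progenitors, and the comparison here asks whether transcripts of the interferon response differed between pro-B cells with and without Mef2c.

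The response element has a core of 2 copies of GAAA with any 2 bases between them, which was searched on both strands of the 300 bases around each gene's start (250 before and 50 after). A window was given for 8 of the 9 members, all but Usp18, and 4 of these 8 genes held the core (Ifit1, Ifit3, Isg15 and Stat2). Of all 27025 genes with a window, 3.99% held it. The stretches with matches are shown because these 4 genes share the element and differed in their values on the arrays, with the matches in capitals, 5′ to 3′ on the gene's strand, from RefSeq GRCm38.p6. The Isg15 stretch (chr4:156200855-156200916, minus strand) held 3 matches that overlap each other. The Stat2 stretch (chr10:128270256-128270305, plus strand) held 1 match, and the Ifit3 stretch (chr19:34583353-34583436, plus strand) and the Ifit1 stretch (chr19:34640765-34640833, plus strand) held 2 each.
Isg15: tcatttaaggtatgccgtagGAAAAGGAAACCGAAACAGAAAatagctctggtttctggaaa
Stat2: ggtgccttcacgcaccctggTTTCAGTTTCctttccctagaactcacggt
Ifit3: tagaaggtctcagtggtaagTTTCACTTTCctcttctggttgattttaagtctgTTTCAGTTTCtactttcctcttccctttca
Ifit1: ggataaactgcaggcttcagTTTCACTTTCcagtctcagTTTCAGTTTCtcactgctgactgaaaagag
These stretches lie between 242 and 37 bases before the transcript start on which each RefSeq window is placed. For Ifit3 this start lies inside the gene's annotated span, so the stretch does too. In Stat2, Ifit3 and Ifit1 the matches were on the opposite strand to the core as written. A match describes these letters only and was not tested for binding in pro-B cells.

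The values analysed are the deposited ones, on a linear scale. Their natural logarithms run from 1.15 to 14.66, and each array holds 296 to 422 values over 65535, beyond what a 16-bit scanner can record, so they appear to be e raised to the log2 signal. On that reading a fold of 2 in deposited values is a fold of 1.62 in signal. Folds below are of deposited values unless signal is named, and a gene was called where limma gave it at least a 2-fold difference with an unadjusted p no higher than 0.05, the study's thresholds. No probe set reached an adjusted p under 0.05. The smallest was 0.102, while 7038 of the 23809 probe sets tested had an unadjusted p under 0.05. Mef2c had deposited values of 14006, 20854 and 17220 in control and 7379 and 6219 in Mef2c-deficient cells (log2 fold change −1.34, limma adjusted p = 0.103). No source used here places this probe set inside or outside the deleted exon. The bacterial hybridisation controls stood apart on Mef2c-deficient array 1 and, in the other direction, on control 3. Their median log2 deviation from the mean of the arrays was 1.97 on the former and −1.58 on the latter. It was −0.43 on control 1, −0.05 on control 2 and 0.12 on Mef2c-deficient array 2. P-values here measure the spread between these few samples.

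None of the 8 genes with a probe set of their own was called in either direction, whereas 16.6% of all 17323 genes so measured were called lower and 9.56% higher in Mef2c-deficient pro-B cells. In each of the 8 the values of the groups overlapped, against 54.2% of all genes whose groups did not overlap. The probe set of Isg15 and Gm9706 was called higher and its groups did not overlap. Of all 23809 probe sets tested, 13.5% were called lower, 10.1% were called higher, and 27.5% had both Mef2c-deficient arrays above all controls. In RNA from sorted populations, fewer cells of a type and less RNA per cell cannot be told apart. The unadjusted limma p of the 8 genes ran from 0.26 to 0.91, and their median log2 fold change was −0.46, against 0.043 over all genes. None of the 8 had an unadjusted p under 0.05, as 32.4% of all genes did. The balance of calls depended on scaling: of all probe sets tested, 3206 were called lower and 2401 higher, against 1832 and 1904 after a further quantile normalisation, 1832 and 1591 after cyclic loess, 4690 and 1558 with median-centred arrays and 853 and 10504 with arrays centred on housekeeping genes, which moved the median of all probe sets from 0.19 to 0.94. Under the last setting the median log2 fold change of the 8 genes was 0.30. None of the 8 was called under any of these settings.

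**Figure D1:**
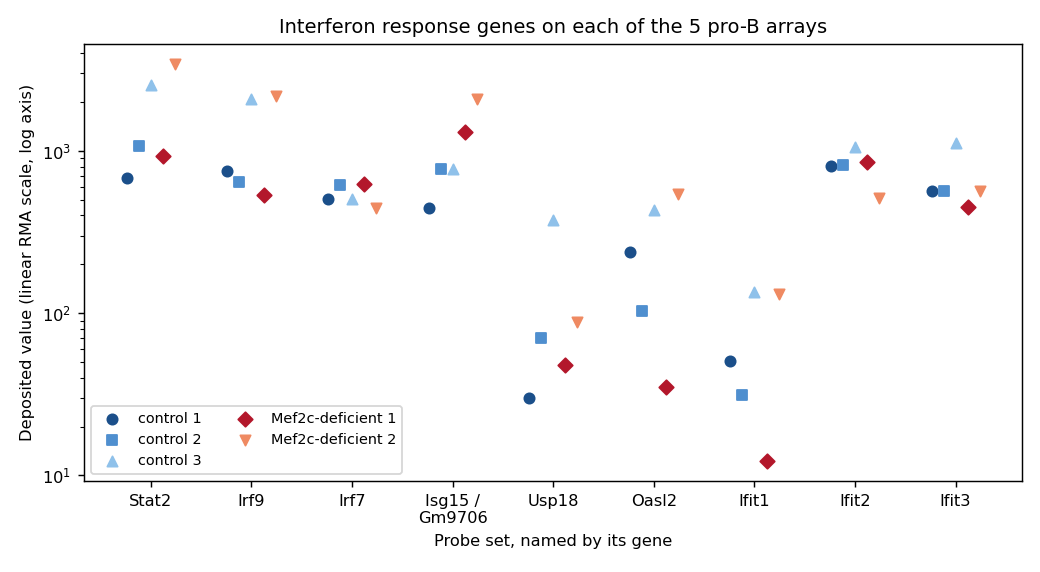
Deposited value (linear scale, drawn on a log axis) of each of the 9 member probe sets on the 3 control and 2 Mef2c-deficient arrays, 1 point per array. Control 3 and Mef2c-deficient 2 lie well above the other arrays for Stat2, Irf9 and Ifit1, and only the probe set of Isg15 and Gm9706 has both Mef2c-deficient arrays above all 3 controls.

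Stat2 and Irf9 encode proteins that act together at the response element, and neither was called. Stat2 (chr10:128270498-128292853, GRCm38.p6) had values of 679, 1069 and 2533 in control and 933 and 3431 in Mef2c-deficient cells. The highest control and the higher Mef2c-deficient array were both well above the other 3, so the arrays within each group were further apart than the group means. The log2 fold change was 0.55 (standard error 0.81, limma adjusted p = 0.623), and it was −0.39 without Mef2c-deficient array 2. Irf9 (chr14:55603985-55610030) was high on the same arrays, with 746, 639 and 2074 in control and 535 and 2182 in Mef2c-deficient cells. Its log2 fold change was 0.12 (standard error 0.83, limma adjusted p = 0.922). This turned to −0.90 without Mef2c-deficient array 2, to −0.092 without control 1 and to −0.20 without control 2.

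Irf7 (chr7:141263183-141266499) encodes a transcription factor of the type I interferon genes and is itself a target of the response. Its values were 503, 612 and 503 in control and 622 and 443 in Mef2c-deficient cells. Irf7 was the member with the least spread between arrays, and the Mef2c-deficient arrays lay on either side of the controls. The log2 fold change was −0.033 (standard error 0.28, limma adjusted p = 0.934). Its 95% interval, from −0.74 to 0.68, corresponds to folds of 0.597 to 1.6, so a 2-fold difference in either direction lay outside it. The sign was positive without control 2 (0.061) and without Mef2c-deficient array 2 (0.21).

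ISG15 is a ubiquitin-like protein that is attached to other proteins during the interferon response. The probe set of Isg15 (chr4:156199424-156200818) and Gm9706 (chr17:46406981-46407624) had values of 442, 768 and 768 in control and 1311 and 2074 in Mef2c-deficient cells. Both Mef2c-deficient arrays were above all 3 controls. The means were 659 ± 188 (SD, n = 3) and 1692 ± 540 (SD, n = 2). This is a fold of 2.58, or of 1.93 if counted in signal (log2 fold change 1.37, standard error 0.39, limma unadjusted p = 0.018, adjusted p = 0.121). The call depended on Mef2c-deficient array 2: without it the log2 fold change was 1.04 with an unadjusted limma p of 0.108. It also fell below the fold threshold when the fold was counted in signal. Genes of the same level, the seventh of 10 groups by mean value, had a median log2 fold change of −0.73.

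USP18 removes ISG15 from proteins and blocks signalling at IFNAR2. Usp18 (chr6:121245906-121270917) had values of 30.1, 69.8 and 376 in control and 48.1 and 87.7 in Mef2c-deficient cells. Control 3 was the highest by a wide margin, and Usp18 was below the array's median on the other 4 arrays. Its log2 fold change was −0.51 (standard error 1.13, limma adjusted p = 0.744), and it was 0.50 without control 3. Of the enzymes that attach ISG15, the activating enzyme Uba7 was called lower, with 2991, 2547 and 4240 in control and 1038 and 824 in Mef2c-deficient cells (log2 fold change −1.78, standard error 0.32, limma adjusted p = 0.102). Genes at the level of Uba7 had a median log2 fold change of −1.0. The conjugating enzyme Ube2l6 and the ligase Herc6, both named after their values were seen, were not called. Ube2l6 had 360, 296 and 1342 in control and 66.4 and 223 in Mef2c-deficient cells, and Herc6 had 504, 357 and 586 against 317 and 108. For each of these 3 enzymes both Mef2c-deficient arrays were below all 3 controls, as was so for 28.4% of all genes. Uba7 was picked by its call, and Ube2l6 and Herc6 after their values were seen, so the lack of overlap adds no support.

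**Figure D2:**
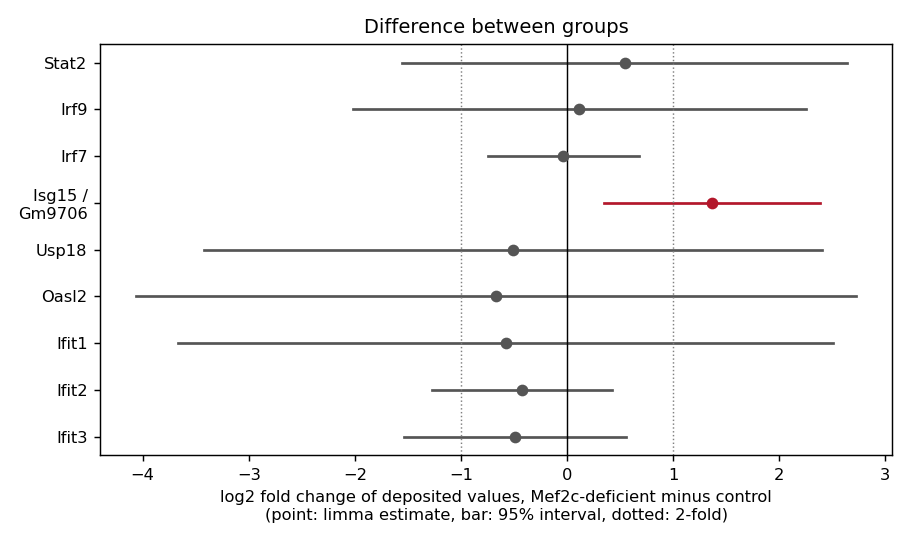
Log2 fold change of deposited values, Mef2c-deficient minus control, for the 9 member probe sets: points are limma estimates, bars the 95% intervals, and dotted lines mark 2-fold. The interval of Irf7 is the narrowest (−0.74 to 0.68), that of Oasl2 the widest (−4.06 to 2.73), and only that of Isg15 and Gm9706 (0.35 to 2.38) leaves out 0.

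The effectors followed 2 patterns. Oasl2 (chr5:114896926-114912245), a member of the oligoadenylate synthetase family, had values of 238, 103 and 432 in control and 35.3 and 545 in Mef2c-deficient cells. The Mef2c-deficient arrays held both the lowest and the highest value and were 15.4-fold apart. The log2 fold change was −0.67 (standard error 1.32, limma adjusted p = 0.712) and it was 1.31 without Mef2c-deficient array 1. Ifit1 (chr19:34640889-34650009) encodes a protein that binds foreign RNA caps. It had values of 50.5, 31.4 and 135 in control and 12.2 and 132 in Mef2c-deficient cells, and it was below the median of all 5 arrays. The Mef2c-deficient arrays were 10.8-fold apart. The log2 fold change of Ifit1 was −0.58 (standard error 1.20, limma adjusted p = 0.725), its interval ran from 0.0789-fold to 5.69-fold, and it was 1.14 without Mef2c-deficient array 1 and 0.0077 without control 3.

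Ifit2 and Ifit3, which neighbour Ifit1 on chromosome 19 and encode related RNA-binding proteins, varied less. Ifit2 (chr19:34550550-34576534) had values of 801, 822 and 1062 in control and 852 and 515 in Mef2c-deficient cells, with the lowest on Mef2c-deficient array 2. Its log2 fold change was −0.42 (standard error 0.33, limma adjusted p = 0.369). Ifit3 (chr19:34583119-34588982) had values of 565, 565 and 1112 in control and 449 and 565 in Mef2c-deficient cells. Only 3 distinct values thus covered 5 arrays, and only control 3 stood apart. Its log2 fold change was −0.49 (standard error 0.40, limma adjusted p = 0.39). Equal values on different arrays were not particular to Ifit3: 42.8% of the probe sets tested had equal values, compared to 9 decimals, on at least 2 arrays, and so did Irf7 and the probe set of Isg15 and Gm9706. No source used here says how these ties arose, and they can make the spread between arrays look smaller than it was.

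The median standard error of the 8 genes was 0.82 on the log2 scale, against 0.40 over all genes. Irf7 (0.28) and Ifit2 (0.33) lay below the latter, Ifit3 (0.40) was close to it, and the other 5 genes lay above it. Control 3 was above controls 1 and 2 in 7 of the 8 genes (33.7% of all genes) and at least 2-fold above their mean in 5 (9.62% of all genes). Mef2c-deficient array 2 was above array 1 in 6 of the 8 (38.3% of all genes) and at least 2-fold above it in 4, namely Stat2, Irf9, Oasl2 and Ifit1 (13.1% of all genes). As a median over the 8 genes, the log2 deviation from the mean of the 5 arrays was −0.11, −0.31 and 0.93 for the controls and −0.68 and 0.61 for the Mef2c-deficient arrays. One array of each group was thus high and the rest low.

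The genes whose pattern over the 5 arrays lay closest to the mean pattern of the 8 genes were Aga, 2810002D19Rik, Rasa3, Trim5 and Fam222b. They were sought among genes outside all lists, and likeness was the root mean square distance on the log2 scale, 0.0554 for Aga to 0.135 for Fam222b. Aga had values of 2709, 2709 and 6330 in control and 1823 and 4576 in Mef2c-deficient cells. The members' own distances from their mean pattern ran from 0.293 for Irf9 to 0.914 for Oasl2.

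**Figure D3:**
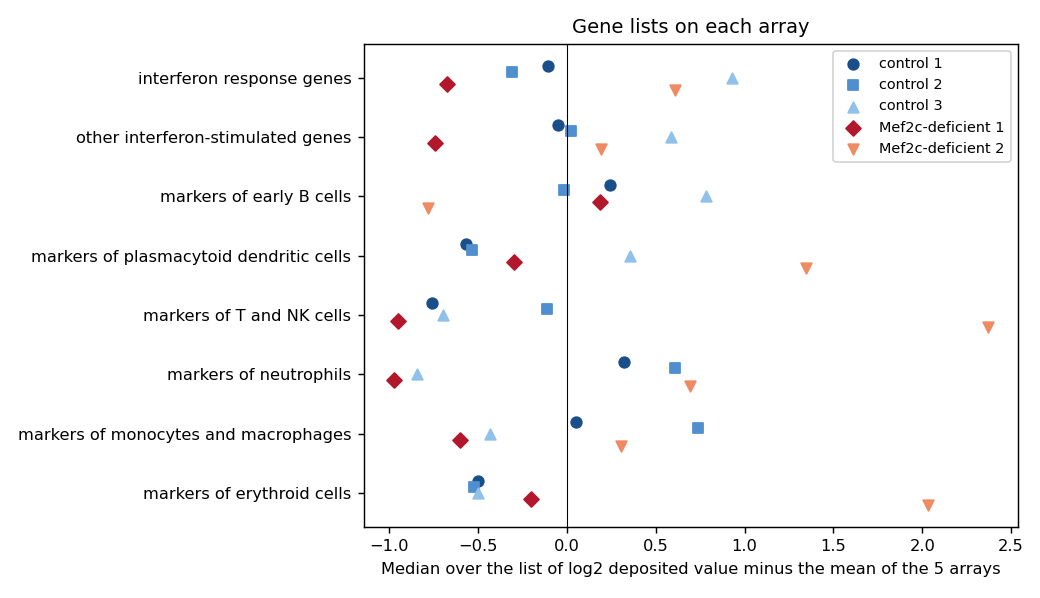
Median over each gene list of the log2 deposited value minus the mean of the 5 arrays, 1 point per array, for the 8 interferon response genes, 50 other interferon-stimulated genes and 6 lists of cell type markers. Control 3 is the highest array for both interferon lists, and Mef2c-deficient 2 is far above the other 4 arrays for markers of T and NK cells.

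Markers of some other cells were high on Mef2c-deficient array 2. Of 11 markers of T and NK cells, 8 were higher there than on the other 4 arrays, with a summed value of 59527 against 5468 to 5747 in control and 3825 on Mef2c-deficient array 1. Of 6 markers of plasmacytoid dendritic cells, the main source of interferon alpha, 4 were highest on Mef2c-deficient array 2 (Klk1, Cox6a2, Pacsin1 and Bst2). Bst2 is also listed among the interferon-stimulated genes. Tcf4 and Ly6d were highest on Mef2c-deficient array 1, and Siglech, Ccr9 and Runx2 had no probe set in the data. The sums of the 6 markers were 25215 to 114227 in control and 116024 and 116370 in Mef2c-deficient cells. Ly6d alone gave most of these sums on every array (27377, 16868 and 100028 in control, 110498 and 88872 in Mef2c-deficient cells). The sums thus say little about the other markers of the list. The median log2 deviation of the list was −0.30 on Mef2c-deficient array 1 and 1.34 on array 2, and −0.57 to 0.36 in control. Summed markers of neutrophils (8 genes) were 2231479 to 4838217 in control and 2460767 and 5610317 in Mef2c-deficient cells, those of monocytes and macrophages (10 genes) were 221369 to 349162 against 120592 and 612576, and those of erythroid cells (3 genes) were 478 to 492 against 502 and 2440. Of the 8 neutrophil markers, 5 were highest on Mef2c-deficient array 2 and 3 on control 2. Their median log2 deviation was 0.69 on the former and 0.61 on the latter. Alas2 gave most of the erythroid sum on Mef2c-deficient array 2 (2200). For the list of 10 genes of monocytes and macrophages, Lyz2 gave nearly all of the sum (117729 and 604784 on the Mef2c-deficient arrays). Of those 10 markers, 3 were highest on Mef2c-deficient array 2 and 5 on control 2. Markers of early B cells (10 genes) had sums of 1064630 to 1632849 in control, 1411862 on Mef2c-deficient array 1 and 717820 on array 2. Of the 10, 9 were higher on control 3 than on the other controls. Their median log2 deviation was −0.015 to 0.78 in control, 0.18 on Mef2c-deficient array 1 and −0.78 on array 2, where none was highest. On array 2 Ebf1 was 3026 and Blnk 2661, against at least 29295 and 18899 on the other arrays. Cd79a was not low there (250654, against 153021 to 257531 in control). No marker was listed at 0. The summed value of the 8 interferon response genes was 3613 to 8229 in control and 3487 and 7900 in Mef2c-deficient cells. The part that other cells played in the interferon values was not tested.

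The level of a gene also moved with its difference between groups. Across 10 groups of genes by mean value, the dimmest had a median log2 fold change of 0.62 and the brightest one of −0.91. The quartiles of the deposited values also differed between arrays. The lower quartile was 42.0, 42.9 and 38.7 in control and 65.4 and 52.7 on the Mef2c-deficient arrays. The upper quartile was 1478, 1470 and 1850 against 1072 and 968. How far this narrower spread went with the trend across levels was not tested. Ifit1 and Usp18 lay in a group with a median of 0.64 and Oasl2 in one with 0.43, and all 3 had log2 fold changes below these medians. Stat2 lay in a group with a median of −1.0 and Irf9 and Ifit2 in one with −0.73, and all 3 had log2 fold changes above these medians. Ifit3 and Irf7 lay in a group with a median of 0.029, and both had log2 fold changes below it. The standard errors of Ifit1, Usp18, Oasl2, Stat2 and Irf9 were 0.81 to 1.32, and the distance from these medians was not tested.

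**Figure D4:**
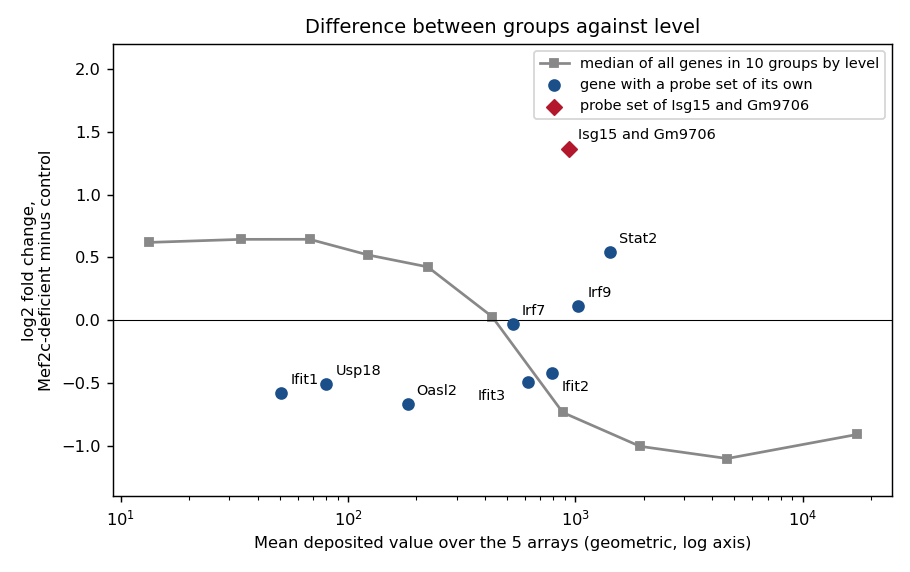
Log2 fold change (Mef2c-deficient minus control) of each member against its mean deposited value over the 5 arrays (log axis), with the median of all genes in 10 groups by level as a grey line. The line falls from 0.62 to −0.91, Ifit1, Usp18 and Oasl2 lie well under it, and Stat2, Irf9 and the probe set of Isg15 and Gm9706 well above it.

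The rest of the pathway was read from 7 lists with 121 genes measured by a probe set of their own. Of these, 17 were called lower (14%) and 5 higher (4.13%), beside the 16.6% and 9.56% of all genes, and 99 were not called. Their median log2 fold change was −0.52. Of the 22 called genes, 7 kept the call without each array in turn (Tor3a, Uba7, Nlrc5, Rnaseh2a, Ddx41, Tlr3 and Myd88). The count of genes called lower was 11 without control 2, 10 without control 3 and 29 without Mef2c-deficient array 2, and the count called higher was 1 to 12 without 1 array. The split of 17 lower and 5 higher became 8 and 8 after a further quantile normalisation, 10 and 8 after cyclic loess, 29 and 2 with arrays centred on their medians and 4 and 21 with arrays centred on housekeeping genes.

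Among the ligands, Ifna4 and Ifnb1 were called higher and the other 6 measured genes were not called, beside 9.56% of all genes called higher. Ifnb1, which encodes interferon beta, had values of 54.4, 78.6 and 67.5 in control and 268 and 119 in Mef2c-deficient cells (log2 fold change 1.43, standard error 0.43, limma adjusted p = 0.127). Ifna4, an interferon alpha gene, had 12.2, 12.2 and 7.82 against 29.0 and 18.5 (log2 fold change 1.14, standard error 0.36, limma adjusted p = 0.133). Both Mef2c-deficient arrays were above all controls for each gene, as for 25.9% of all genes. This lack of overlap comes from the same values as the calls and adds no support to them. Both genes were dim: Ifna4 was below the median of all 5 arrays and Ifnb1 of 4. Genes at their levels had median log2 fold changes of 0.62 and 0.52. Without Mef2c-deficient array 1, which was the higher one for both, the log2 fold changes were 0.81 for Ifna4 and 0.84 for Ifnb1, and neither was called. Ifnb1 was also not called without control 1 (1.29) or control 3 (1.45), and Ifna4 lost its call without each single control (0.92 to 1.24).

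Of 8 receptor and kinase genes, Jak1 and Tyk2 were called lower and none higher, beside 16.6% of all genes called lower and 9.56% higher. Jak1 had values of 4785, 4136 and 5207 in control and 1739 and 2765 in Mef2c-deficient cells (log2 fold change −1.10, standard error 0.31, limma adjusted p = 0.118). Tyk2 had 2557, 2365 and 3066 against 932 and 1525 (log2 fold change −1.15, standard error 0.32, limma adjusted p = 0.118). For both kinases both Mef2c-deficient arrays were below all controls, as for 28.4% of all genes. That lack of overlap comes from the same values as the calls and adds no support to them. Genes at the levels of Jak1 and Tyk2 had medians of −1.10 and −1.0. Without Mef2c-deficient array 1 the log2 fold changes were −0.76 for Jak1 and −0.80 for Tyk2 and neither was called, and Jak1 was also not called without control 1 (−1.08). The receptor chains were not called: Ifnar1 had 916, 322 and 1391 in control and 720 and 1451 in Mef2c-deficient cells, and Ifnar2 had 939, 688 and 6666 against 928 and 939.

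Inhibitors of the pathway were called lower in 5 of 9 genes and higher in none (median log2 fold change −1.08), beside 16.6% of all genes called lower. The 9 housekeeping genes measured gave the same count, 5 lower and none higher (median −1.03). Genes at the level of Pias1 had a median log2 fold change of −1.0, those at the level of Ptpn1 −1.10, those at the level of Pias4 −0.73 and those at the level of Pias2 and Ptpn2 0.43. The 5 were Pias1, Pias2 and Pias4, which encode inhibitors that bind STAT proteins, and Ptpn1 and Ptpn2, which encode phosphatases of the kinases and STATs. Pias2 changed most, from 333, 360 and 499 in control to 167 and 30.9 in Mef2c-deficient cells (log2 fold change −2.45). Pias4 had 1204, 1150 and 1150 against 324 and 650 (log2 fold change −1.35). Ptpn1 had 7064, 9093 and 13223 against 4097 and 4903 (−1.08), Pias1 had 3432, 2721 and 4440 against 2305 and 1164 (−1.08) and Ptpn2 had 460, 358 and 486 against 75.4 and 279 (−1.57). In all 5 both Mef2c-deficient arrays were below all controls, as for 28.4% of all genes. These 5 were picked by their calls, so the lack of overlap adds no support. Each call was lost without at least 1 array. Pias2 lost it without each control in turn (−2.56 to −2.27), and Pias4 without control 1 (−1.32) or Mef2c-deficient array 1 (−0.84). Ptpn1 lost it without control 2 (−1.11), control 3 (−0.84) or either Mef2c-deficient array (−0.95 and −1.21). Pias1 lost it without each control (−1.25 to −0.90) or Mef2c-deficient array 2 (−0.59). Ptpn2 lost it without each control (−1.70 to −1.48) or Mef2c-deficient array 1 (−0.63).

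None of 8 other interferon regulatory factors was called, beside 16.6% of all genes called lower and 9.56% higher. Irf1, a target of interferon gamma, had values of 14367, 6865 and 12760 in control and 6847 and 11344 in Mef2c-deficient cells (log2 fold change −0.29). Irf3, which acts below STING, had 5539, 4066 and 3572 against 4066 and 1953 (−0.62). Irf8, a factor of B-cell and myeloid development, had 26855, 27835 and 37324 against 6640 and 52822, so that the Mef2c-deficient arrays held the lowest and the highest value (−0.70). Without 1 array, Irf3 was called lower without Mef2c-deficient array 1 (−1.14) and Irf8 without array 2 (−2.19), and without array 1 the sign of Irf8 was positive (0.80), as was that of Irf1 (0.071).

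**Figure D5:**
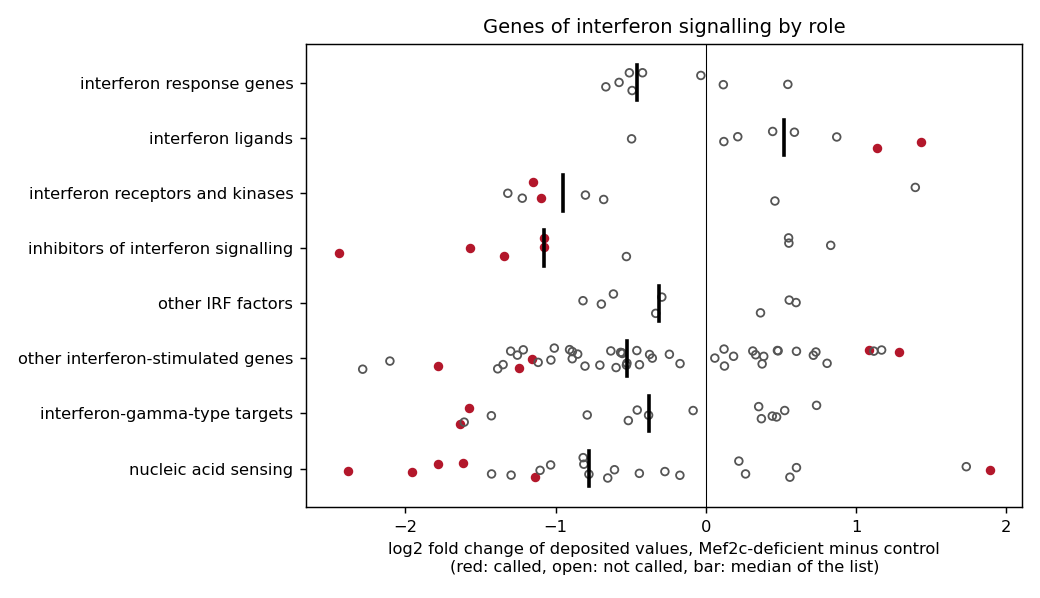
Log2 fold change of deposited values (Mef2c-deficient minus control) for each gene of the 8 lists of interferon signalling that had a probe set of its own, with called genes in red, others open and a bar at the median of each list. The 8 interferon response genes hold no called gene, and the other 7 lists hold 17 called lower and 5 called higher among 121 genes, beside 16.6% and 9.56% of all genes.

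Of 50 other interferon-stimulated genes, 3 were called lower, 2 higher and 45 not, beside 16.6% and 9.56% of all genes called lower and higher. Their median log2 fold change was −0.53. Those called higher were Ifi27l2a, which encodes a small interferon-induced protein (9487, 5467 and 11344 in control and 17544 and 23914 in Mef2c-deficient cells, log2 fold change 1.29), and Ifih1, which encodes the RNA sensor MDA5 (127, 258 and 228 against 437 and 396, log2 fold change 1.09). Those called lower were Uba7, described above, Tor3a (1233, 1364 and 1601 against 541 and 639, log2 fold change −1.24) and Dhx58 (242, 375 and 561 against 198 and 140, log2 fold change −1.15). DHX58 is a regulator of RNA sensors, MDA5 among them, and the calls of this pair lay on opposite sides. The calls of Ifih1 (0.78 without control 1), Ifi27l2a (0.98 without control 2) and Dhx58 (−0.86 without control 3) were each lost on leaving out any 1 of 4 arrays.

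Several well-known members of the response were not called, and some of these were dim. Mx1 and Rsad2 lay below the median of all 5 arrays and Samhd1 of 4, which limits what a missing call can show. Mx1, an antiviral GTPase, had values of 142, 142 and 171 in control and 142 and 85 in Mef2c-deficient cells (log2 fold change −0.46). Rsad2, which encodes viperin, had 91.9, 71.2 and 99.1 against 188 and 91.9 (0.60), Oas2 had 347, 314 and 314 against 270 and 238 (−0.36), and Samhd1, a dNTP hydrolase, had 228, 125 and 161 against 48.7 and 161 (−0.91). Eif2ak2, the RNA-activated kinase PKR, had 374, 473 and 561 against 267 and 263 (−0.80). Its groups did not overlap, as for 54.2% of all genes, and its fold was under 2. Bst2, which encodes tetherin, had 7512, 6683 and 11632 against 2410 and 20717 (−0.24), and Ifitm3, which blocks viral entry, had 42700, 53636 and 42700 against 7746 and 163106 (−0.37). For Bst2 and Ifitm3 the Mef2c-deficient arrays again held the lowest and the highest value, and for Ifitm3 they were 21.1-fold apart. Without Mef2c-deficient array 2 both genes were called lower (−1.79 and −2.57), as was Samhd1 (−1.77), and Rsad2 was called higher (1.12). Without array 1 the sign of Bst2 (1.31) and Ifitm3 (1.82) was positive.

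Among targets shared with interferon gamma, Gbp6 and Nlrc5 were called lower and the other 13 of 15 genes were not called. Of all genes, 16.6% were called lower and 9.56% higher. Nlrc5, an activator of MHC class I genes, had values of 7292, 5638 and 8163 in control and 3081 and 1759 in Mef2c-deficient cells (log2 fold change −1.58, standard error 0.36, limma adjusted p = 0.106), at a level where all genes had a median of −1.10. Gbp6, a guanylate-binding GTPase, had 142, 142 and 485 against 71.1 and 66.7 (log2 fold change −1.64), and its call was lost without control 1 or control 2 (−1.93 each) and without either Mef2c-deficient array (−1.68 and −1.59).

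Nucleic acid sensing genes were called lower in 5 of 23 and higher in 1, beside 16.6% and 9.56% of all genes. The DNA sensor cGAS, listed as Mb21d1, had values of 1217, 978 and 405 in control and 929 and 1529 in Mef2c-deficient cells (log2 fold change 0.60). STING, listed as Tmem173, had 3829, 4050 and 4983 against 2403 and 5942 (log2 fold change −0.17, and 0.48 without Mef2c-deficient array 1). Neither was called, and their groups overlapped. Tlr3, the receptor for double-stranded RNA, was called higher, with 26.3, 36.5 and 31.4 in control and 140 and 95.5 in Mef2c-deficient cells (log2 fold change 1.89, standard error 0.30, limma adjusted p = 0.102). It was below the median of every array, at a level where all genes had a median of 0.64. Myd88, the adaptor of most Toll-like receptors, fell from 1459, 2076 and 2104 to 619 and 468 (log2 fold change −1.79, standard error 0.30, limma adjusted p = 0.102), and its partner kinase Irak1 was also called lower (log2 fold change −1.96). Ddx41, a helicase reported to sense DNA, had 7869, 6216 and 5318 against 2304 and 652 (−2.38). Rnaseh2a, the catalytic subunit of the enzyme that removes ribonucleotides from DNA, had 11755, 12016 and 10368 against 5459 and 2511 (−1.62), and Rnaseh2c of the same enzyme was also called lower (−1.14). Genes at the level of Ddx41, Rnaseh2a and Irak1 had a median log2 fold change of −1.10, those at the level of Rnaseh2c −0.91 and those at the level of Myd88 −0.73. Irak1 was not called without control 2 (−1.94) or control 3 (−1.83), and Rnaseh2c was not called without control 2 (−1.18), control 3 (−0.94) or Mef2c-deficient array 1 (−0.75).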

How the data were processed

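The authors sorted pro-B cells, hybridised their RNA to arrays and computed expression values by robust multiarray averaging, which adjusts background, quantile normalises and summarises probes. The deposited intensity values were taken as they stand, since the study's methods include quantile normalisation, and log2 was taken of them. Their quartiles still differed between arrays, as given above. The study's methods compared groups with limma and leave out probes called absent or marginal in over 4 replicates, and no versions are given in the sources used here. Before the fit, 26 Affymetrix control probe sets were left out. Limma 3.58.1 in R 4.3.3 was then fitted to the remaining 23809 probe sets with group as the only term, and p-values were adjusted over all of them by Benjamini-Hochberg. Gene symbols came from the platform annotation: 17621 probe sets had 1 symbol, 516 several and 5672 none. A gene was represented by its probe set of highest mean log2 value among those naming it alone, 17323 genes in all. Levels of single genes were not set against each other. They were used to group genes by mean value, to name genes dim against the array medians, and in sums within lists. Only 3 control and 2 Mef2c-deficient arrays limit the precision. The fit was tested on simulated data. The members and gene lists were chosen with earlier results of these data known. Of each list, always named were fixed core genes and up to 4 called genes of smallest p, and the other called genes (Ptpn2, Irak1 and Rnaseh2c) were named after their values were seen. Alternatives changed the scale, normalisation, centring, dim-probe filter, array weights, averaging of probe sets, replicate block and the arrays included. Promoter windows and positions came from RefSeq GRCm38.p6.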

Additional observations from a re-analysis of the deposited data

How the results depend on the processing

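Under all 14 alternatives none of the 8 interferon response genes with a probe set of their own was called. Not all of these could change that: counting the fold in signal could only remove calls. Averaging probe sets left the fold changes of these genes as they were. Ifit1, Usp18 and Oasl2 could not be assessed without dim probe sets. The median log2 fold change of the 8 genes was −0.46, moved to 0.30 with arrays centred on housekeeping genes, and ran from −0.78 to 0.53 without 1 array in turn. The call of the probe set of Isg15 and Gm9706 was kept in 10 of 13 alternatives (log2 fold change 1.04 to 2.12, limma p 0.00267 to 0.108). It was lost with the fold counted in signal (1.37), with array weights (1.57) and without Mef2c-deficient array 2. Other pathway genes called lower, 17 as reported, numbered 9 with the fold counted in signal, 8 after quantile normalisation, 10 after cyclic loess, 29 with median-centred arrays, 4 with housekeeping centring, 6 with the replicate block and 10 to 29 without 1 array. Those called higher, 5 as reported, numbered 1, 8, 8, 2, 21, 2 and 1 to 12 in the same order, and 2 both without dim probe sets and with array weights. Of the 22 called pathway genes, Tlr3 and Myd88 kept their call in all alternatives run. Mef2c was not called with the fold counted in signal (−1.34), after quantile normalisation (−0.43) or cyclic loess (−0.32), with housekeeping centring (−0.58) or with array weights (−1.26).

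Signs that turned, none of them in a called gene, were as follows. After quantile normalisation and after cyclic loess the log2 fold changes were 0.15 and 0.15 for Irf7, 0.60 and 0.73 for Irf1, 0.30 and 0.33 for Irf3, 0.066 and 0.28 for Irf8, 0.58 and 0.78 for Bst2, 0.30 and 0.55 for Ifitm3 and 0.69 and 0.79 for Tmem173. With housekeeping centring they were 0.18 for Ifit1, 0.34 for Ifit2, 0.27 for Ifit3, 0.25 for Usp18, 0.092 for Oasl2, 0.72 for Irf7, 0.46 for Irf1, 0.14 for Irf3, 0.062 for Irf8, 0.30 for Mx1, 0.40 for Oas2, 0.51 for Bst2, 0.38 for Ifitm3 and 0.58 for Tmem173. Irf9 was −0.11 with median-centred arrays, and Usp18 was 0.39 with array weights. Each centring shifts every log2 fold change by the same amount, so that signs of small changes turn. The 9 housekeeping genes, 5 of them called lower, included B2m, which is also listed among targets shared with interferon gamma. The cause of the turns under the other settings was not tested. Without 1 array in turn, the values ran from −2.29 to 1.14 for Ifit1, −1.32 to 0.50 for Usp18, −2.64 to 1.31 for Oasl2, −0.39 to 1.49 for Stat2, −0.28 to 0.21 for Irf7, −0.90 to 1.13 for Irf9, −0.14 to 0.97 for Ifnar1, −1.42 to 0.22 for Ifnar2, −0.66 to 0.071 for Irf1, −2.19 to 0.80 for Irf8, −1.79 to 1.31 for Bst2, −2.57 to 1.82 for Ifitm3 and −0.83 to 0.48 for Tmem173. Over all probe sets, 1386 without Mef2c-deficient array 1, 2524 without array 2 and 9572 with housekeeping centring had a limma adjusted p under 0.05, against 0 as reported, and a lone array of a group is assumed there to vary like the others.

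Groups shared the replicate numbers 1 and 2 in the labels, with no source for a pairing, and the deviations of same-numbered arrays correlated at 0.10 and −0.03. With the replicate block the log2 fold change was 0.0077 for Ifit1, 0.50 for Usp18 and 0.22 for Ifnar2, the values without control 3, which stands alone in its block. No array has a technical repeat. A signal near background limits Ifit1, Usp18, Ifna4, Ifnb1, Tlr3, Mx1, Rsad2, Samhd1 and Gbp6, whose values lie below the median on most arrays.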
